A study of Mus musculus with 8 samples.

Results

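The genes described here are 10 that mark alveolar type II cells and carry out their main task, the making of lung surfactant: the surfactant proteins Sftpa1, Sftpb, Sftpc and Sftpd, the lipid genes Abca3 and Lpcat1, the protease Napsa, the membrane protein Lamp3, the transcription factor Etv5 and the phosphate transporter Slc34a2. They were chosen by name, and each was read from the probe set with the highest mean among those assigned to that gene alone. All 10 were measured, among 18820 genes in all. RNA of whole lungs was hybridised to 8 arrays in 4 groups: CCSP-p52 mice on doxycycline (dox) with LPS, WT mice on dox with LPS, CCSP-p52 mice on dox and WT mice on dox. Each group had 2 arrays. For each array RNA of 3 mice was pooled, so a group covers 6 mice and a value is a mean over animals. All mice were of the FVB strain and 8 to 12 weeks old, with the sexes evenly mixed in each group. Every mouse, WT included, drank 2 g/L dox with 2% sucrose for 1 week, and the LPS groups were also given lipopolysaccharide, a component of the bacterial outer membrane, into the trachea 48 hours before the lungs were taken. CCSP-p52 mice carry CCSP-rtTA and CCSP-tTS/(tet-O)7-FLAG-p52, so that dox switches on FLAG-tagged p52, the processed form of the NF-κB protein p100 that Nfkb2 encodes, in airway cells that use the CCSP promoter. WT mice were littermates without the transgenes. The labels place p52 in the airway epithelium, and whether the type II cells themselves made it was not measured on these arrays.

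Surfactant is a film of phospholipid and protein that lowers the surface tension of the alveoli and keeps them from collapsing. Type II cells build its main lipid, dipalmitoyl phosphatidylcholine, pack it with the small hydrophobic proteins SP-B and SP-C into lamellar bodies, and release these into the airspace. SP-A and SP-D are larger, water-soluble collectins that bind microbes. Type II cells also divide and give rise to the flat type I cells after injury. In whole-lung RNA, fewer type II cells and less of a transcript in each cell cannot be told apart.

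The promoters of several of these genes are textbook targets of NKX2-1, the lung's master transcription factor, and 3 are printed to show where its core letters fall in a surfactant protein promoter and which motif the lipid transporter's promoter held. Each runs 5′ to 3′ over the 250 bases before and the 50 bases after the gene's start, from RefSeq on build GRCm38.p6, and capitals mark matches to the motifs searched.
Sftpb, chr6:72304360-72304659, plus strand: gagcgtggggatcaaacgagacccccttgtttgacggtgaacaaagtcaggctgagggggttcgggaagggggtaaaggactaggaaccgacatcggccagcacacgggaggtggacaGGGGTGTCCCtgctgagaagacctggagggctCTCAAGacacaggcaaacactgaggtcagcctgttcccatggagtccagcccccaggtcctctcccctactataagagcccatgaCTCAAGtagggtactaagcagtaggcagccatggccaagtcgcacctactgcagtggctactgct
Sftpa1, chr14:41131538-41131837, plus strand: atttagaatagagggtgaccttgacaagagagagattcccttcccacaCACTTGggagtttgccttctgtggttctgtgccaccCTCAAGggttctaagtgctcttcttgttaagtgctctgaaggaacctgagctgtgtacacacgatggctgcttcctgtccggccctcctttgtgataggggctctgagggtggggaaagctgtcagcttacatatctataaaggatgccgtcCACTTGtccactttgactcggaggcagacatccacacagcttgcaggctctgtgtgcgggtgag
Abca3, chr17:24351773-24352072, plus strand: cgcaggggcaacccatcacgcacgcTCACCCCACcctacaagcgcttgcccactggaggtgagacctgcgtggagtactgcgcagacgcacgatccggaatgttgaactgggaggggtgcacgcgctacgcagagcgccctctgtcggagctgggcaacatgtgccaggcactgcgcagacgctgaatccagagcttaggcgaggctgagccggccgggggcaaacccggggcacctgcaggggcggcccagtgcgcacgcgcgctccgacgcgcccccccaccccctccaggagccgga
The letters searched, on both strands, were CTCAAG and CAAGTG for NKX2-1, TGTTTAC for FOXA, CNGGAAGT for ETS, TTCNNNGAA for STAT, GGGA with CC after a gap of 4 bases for NF-κB and TCACNCCAC for SREBP. The Sftpb window held CTCAAG at 100 and at 15 bases before the start and the NF-κB letters on the minus strand at 132 bases before it. The Sftpa1 window held CTCAAG at 166 bases before the start and CAAGTG on the minus strand at 202 and 14 bases before it. The Abca3 window held TCACNCCAC at 225 bases before the start, and no match overlapped another in these 3 windows. The promoter table used here gave 8 windows for 7 of the 10 genes, 2 of them for Etv5, and Sftpc, Sftpd and Napsa were not analysed in this way. In the other windows, the FOXA letters were found for Etv5 and Lamp3, the STAT letters for Lamp3 and the NF-κB letters for Etv5 and Slc34a2, and the Lpcat1 window held none of the motifs. Among 32851 windows of the same length, CTCAAG stood in 15.9%, CAAGTG in 13.6%, TGTTTAC in 3.65%, TTCNNNGAA in 8.30%, the NF-κB letters in 20.7% and TCACNCCAC in 1.24%, and CNGGAAGT, which no member window held, in 9.53%. These are matches of letters and were not tested as binding sites.

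Both LPS groups held 1 array that stood apart. In leukocyte and type I cell markers, pool 2 of the CCSP-p52 lungs with LPS lay closer to the lungs without LPS than the other 3 LPS pools did. Its mean log2 value was 10.77 over 11 leukocyte markers and 11.38 over 14 type I cell markers. Not all lists did so. Over 8 ciliated cell markers WT LPS pool 2 was nearer, at 8.56 against 8.53. Over 10 alveolar macrophage markers its mean of 8.82 in CCSP-p52 LPS pool 2 was the highest of the 8 arrays. WT LPS pool 2 held transcripts of skeletal muscle and squamous epithelium: Acta1, Krt5 and Krt13 stood 3.24, 4.93 and 5.25 log2 units above the next highest array. Results are therefore also given without these arrays. The check of the transgene was Nfkb2, which read 10.20 and 10.33 in CCSP-p52 lungs on dox and 9.51 and 9.58 in WT lungs on dox, a difference of 0.72 (SE 0.23), and 11.28 and 10.53 in CCSP-p52 lungs with LPS and 10.83 and 10.56 in WT lungs with LPS, a difference of 0.21 (SE 0.23). With LPS, Nfkb2 in CCSP-p52 pool 2 was below both WT pools, so the check does not bear out the label of that library. That library is called the library labelled CCSP-p52 LPS pool 2 from here on. Every p52 difference in LPS lungs rests in part on it. Nfkb2 also rose with LPS in WT lungs, by 1.15 (SE 0.23), so that with LPS it does not report the transgene alone. The leukocyte mean of that library, 10.77, was also the lowest of the LPS pools. Its Nfkb2 value alone therefore cannot tell whether it carried the transgene. The library labelled CCSP-p52 LPS pool 2, at 10.53, stood close to the lower WT LPS pool, at 10.56. Whether its label is wrong was not tested. Nothing in the sources used here says that a pool shared animals with another, and a group covers 6 mice. The p-values measure the spread between these pools of 3 mice, which includes differences between animals and may in part be technical.

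After LPS the lipid genes Lpcat1 and Abca3, the surfactant protein Sftpb and the transcription factor Etv5 fell, to between 58.3% and 74.8% of the level on dox alone, and the host-defence collectin Sftpd rose 1.22-fold. In a model with genotype and LPS as terms over all 8 arrays (limma, Benjamini-Hochberg adjusted p under 0.05 over all genes), 4 of the 10 genes were thus lower and 1 was higher. Of all genes tested, 20.8% were lower and 13.5% higher, 34.3% in all, so that a call in itself does not set these genes apart. Lpcat1 alone passed without any 1 of 5 arrays, namely both WT LPS pools, CCSP-p52 dox pool 1 and both WT dox pools, where 23.9% to 30.2% of all genes passed. The median change of the 10 genes was -0.26 on the log2 scale and that of all genes was 0.0046.

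**Figure D1:**
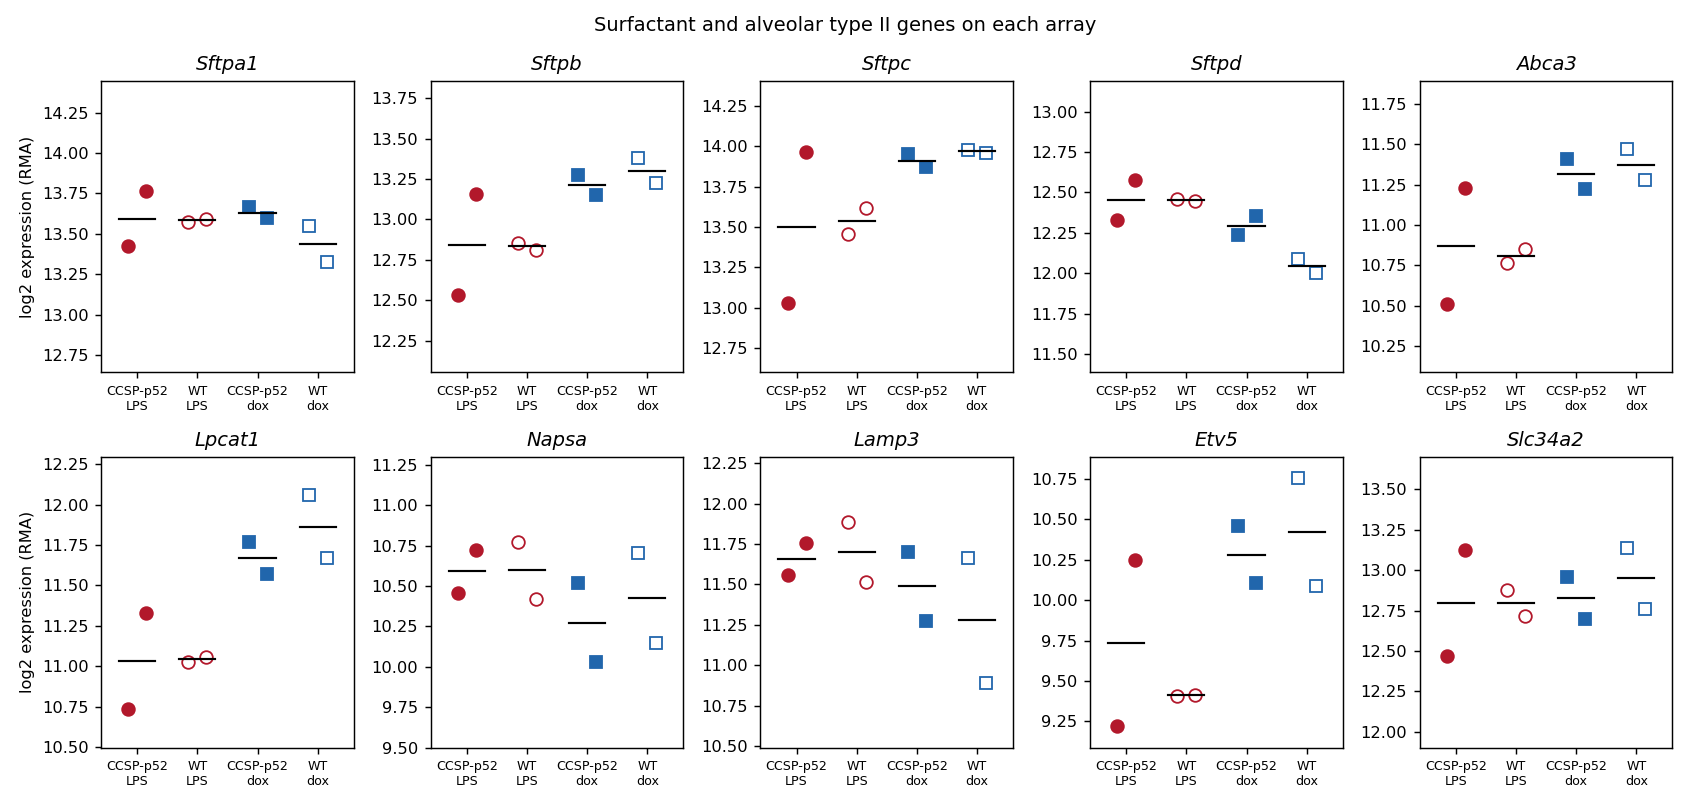
Log2 expression of each of the 10 genes (vertical axes) in the 4 groups (horizontal axis, CCSP-p52 LPS, WT LPS, CCSP-p52 dox, WT dox), with 1 point a pool and a bar at the group mean of 2 pools. Lpcat1 is the 1 gene whose 4 LPS pools all lie below its 4 pools without LPS, and in Etv5 and Sftpc the 2 CCSP-p52 LPS pools lie far apart.

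Lpcat1 encodes the acyltransferase that puts a saturated fatty acid onto lysophosphatidylcholine and so makes the main surfactant lipid. Its log2 values were 10.73 and 11.33 in CCSP-p52 lungs with LPS and 11.03 and 11.06 in WT lungs with LPS, against 11.77 and 11.57 in CCSP-p52 lungs on dox and 12.06 and 11.67 in WT lungs on dox. All 4 LPS pools lay below all 4 pools without LPS, which 36.8% of all genes did in one direction or the other and 21.8% did downwards. Lpcat1 fell by 0.73 on the log2 scale (SE 0.14, adjusted p = 0.0061, limma), to 60.3% of the level without LPS. It was the only 1 of the 10 genes that passed in every alternative analysis and with each array left out, where its change lay between -0.87 and -0.63.

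Abca3 is the transporter that pumps phospholipid into the lamellar body. It read 10.51 and 11.23 in CCSP-p52 lungs with LPS and 10.76 and 10.85 in WT lungs with LPS, against 11.41 and 11.22 in CCSP-p52 lungs on dox and 11.47 and 11.28 in WT lungs on dox. The 2 WT LPS pools and the first CCSP-p52 LPS pool were lower than every pool without LPS, and the library labelled CCSP-p52 LPS pool 2 was level with the lowest of them. Abca3 fell by 0.51 (SE 0.15, adjusted p = 0.0299, limma), to 70.3%.

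Sftpb encodes SP-B, which organises the lipid film and without which newborn mice cannot breathe. Its values were 12.53 and 13.16 in CCSP-p52 lungs with LPS and 12.85 and 12.81 in WT lungs with LPS, against 13.28 and 13.15 in CCSP-p52 lungs on dox and 13.38 and 13.22 in WT lungs on dox. The library labelled CCSP-p52 LPS pool 2 was again within the range without LPS, and the other 3 LPS pools were below it. Sftpb fell by 0.42 (SE 0.13, adjusted p = 0.0383, limma), to 74.8%. Abca3 and Sftpb moved together: over the 8 arrays their correlation was 0.99, the highest of the 45 pairs of the 10 genes, as a description over arrays that share the LPS contrast.

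Sftpc encodes SP-C, the hydrophobic peptide made by type II cells alone and the usual mark of that cell. It read 13.03 and 13.96 in CCSP-p52 lungs with LPS and 13.46 and 13.62 in WT lungs with LPS, against 13.95 and 13.87 in CCSP-p52 lungs on dox and 13.98 and 13.96 in WT lungs on dox. Its change of -0.42 (SE 0.18, adjusted p = 0.102, limma) was of the size of that of Sftpb and did not pass. The WT LPS pools and the first CCSP-p52 LPS pool were below every pool without LPS, and the library labelled CCSP-p52 LPS pool 2 stood at their level. Without that array the change was -0.61 with adjusted p = 0.0025. Values of Sftpc lay near the top of the scale of these arrays, whose highest probe sets read 14.41 to 14.67, and whether this narrows its differences was not tested.

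Of the collectins, Sftpd rose. It encodes SP-D, which binds sugars on microbes and helps macrophages take them up. It read 12.33 and 12.57 in CCSP-p52 lungs with LPS and 12.46 and 12.45 in WT lungs with LPS, against 12.24 and 12.35 in CCSP-p52 lungs on dox and 12.09 and 12.00 in WT lungs on dox. Only the lower CCSP-p52 LPS pool fell within the range of the lungs without LPS. Sftpd rose by 0.28 (SE 0.09, adjusted p = 0.0390, limma). Sftpa1, which encodes SP-A, the more abundant collectin, read 13.42 and 13.77 in CCSP-p52 lungs with LPS and 13.58 and 13.59 in WT lungs with LPS, against 13.66 and 13.60 in CCSP-p52 lungs on dox and 13.55 and 13.32 in WT lungs on dox, and the change was 0.06 (SE 0.10, adjusted p = 0.70, limma). The WT LPS pools of Sftpa1 were alike, and the CCSP-p52 LPS pools held both its lowest and its highest LPS value.

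Etv5 is an ETS-family transcription factor that keeps type II cells in their differentiated state, and it had the largest change of the 10. Its values were 9.22 and 10.25 in CCSP-p52 lungs with LPS and 9.41 and 9.42 in WT lungs with LPS, against 10.46 and 10.11 in CCSP-p52 lungs on dox and 10.75 and 10.09 in WT lungs on dox. Both WT LPS pools and the first CCSP-p52 LPS pool were below every pool without LPS, and the library labelled CCSP-p52 LPS pool 2 lay inside the range without LPS. Etv5 fell by 0.78 (SE 0.24, adjusted p = 0.0398, limma), to 58.3%. With the pool number as a block, the adjusted p of Etv5 was 0.0502. A second probe set of Etv5 gave -0.80 (SE 0.21, adjusted p = 0.0198).

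The 3 other genes did not pass, and in each the pools with and without LPS overlapped. Napsa is the aspartic protease that helps to trim the precursor of SP-B. It read 10.46 and 10.72 in CCSP-p52 lungs with LPS and 10.77 and 10.42 in WT lungs with LPS, against 10.52 and 10.03 in CCSP-p52 lungs on dox and 10.71 and 10.15 in WT lungs on dox, a change of 0.24 (SE 0.16, adjusted p = 0.30, limma). The pools of a group lay further apart without LPS than with it. Lamp3, a glycoprotein of the lamellar body membrane that dendritic cells also make, read 11.56 and 11.75 in CCSP-p52 lungs with LPS and 11.89 and 11.51 in WT lungs with LPS, against 11.70 and 11.28 in CCSP-p52 lungs on dox and 11.66 and 10.89 in WT lungs on dox, a change of 0.30 (SE 0.19, adjusted p = 0.26, limma). The lowest of its 8 values was WT dox pool 2. Slc34a2, the apical transporter that takes up phosphate from the alveolar fluid, read 12.47 and 13.13 in CCSP-p52 lungs with LPS and 12.88 and 12.71 in WT lungs with LPS, against 12.96 and 12.70 in CCSP-p52 lungs on dox and 13.14 and 12.76 in WT lungs on dox, a change of -0.09 (SE 0.16, adjusted p = 0.69, limma). Both the lowest LPS value of Slc34a2 and the highest came from the CCSP-p52 lungs.

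**Figure D2:**
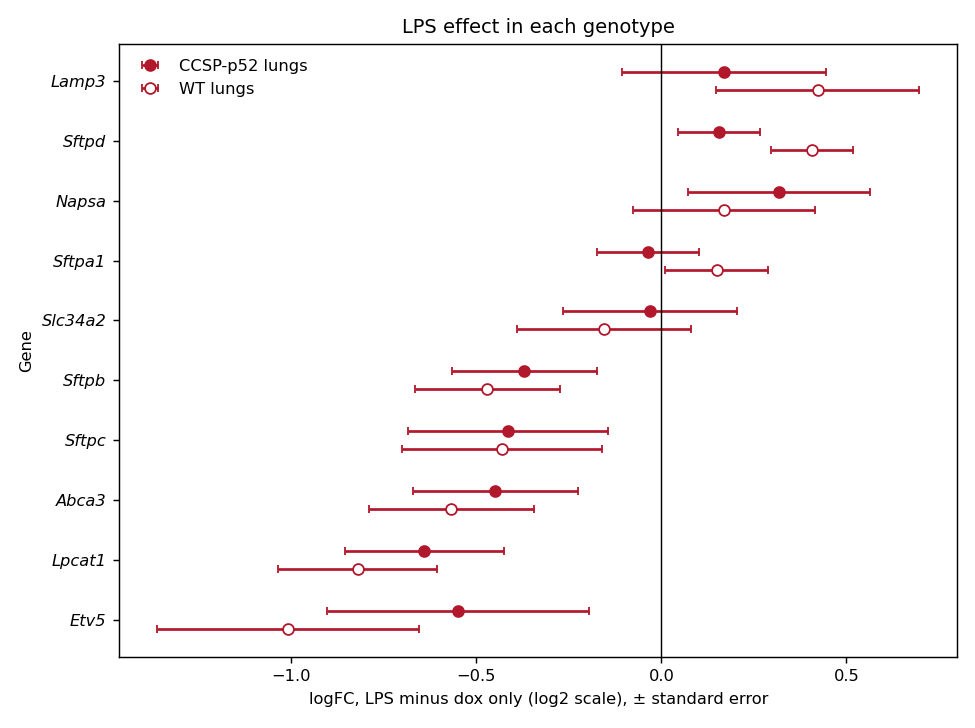
Log2 difference with LPS minus without LPS (horizontal axis) for each of the 10 genes, with filled points for CCSP-p52 lungs, open points for WT lungs and bars for ± 1 standard error. Lpcat1 lies at -0.64 in CCSP-p52 lungs and at -0.82 in WT lungs, and Etv5 has the widest gap between the genotypes, which was within its error.

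The LPS change was also fitted within each genotype. In CCSP-p52 lungs none of the 10 genes passed (limma, where 9.34% of all genes did), and 1 had an unadjusted p under 0.05, Lpcat1 with -0.64 (SE 0.21, adjusted p = 0.106). In WT lungs Lpcat1 fell by 0.82 (SE 0.21, adjusted p = 0.037) and Sftpd rose by 0.41 (SE 0.11, adjusted p = 0.043), against 22.1% of all genes. The count in WT lungs was 6 without either of the CCSP-p52 LPS pools, which enter through the shared estimate of the spread (32.8% of all genes passed), and 0 without any 1 of the other arrays (1.45% to 11.7%). In CCSP-p52 lungs the LPS pools lay wholly below the pools on dox for Lpcat1 alone, where 56.9% of all genes did not overlap. In WT lungs the LPS pools lay wholly below the pools on dox for Sftpb, Sftpc, Abca3, Lpcat1 and Etv5 and wholly above them for Sftpa1 and Sftpd, 7 of 10 genes where 70.5% of all genes did not overlap. The difference between the genotypes in the LPS change was itself tested. The threshold for it and for p52 was a log2 difference of at least 0.41, the fold cut-off by which the study picked p52-induced genes, applied here in both directions and together with an unadjusted p under 0.05. None of the 10 genes passed (3.61% of all genes did, and 0 of the 10 had an unadjusted p under 0.05 in limma), with values between -0.25 for Lamp3 (95% interval -1.18 to 0.67) and 0.46 for Etv5 (95% interval -0.73 to 1.64). Without CCSP-p52 LPS pool 1, where 15.9% of all genes passed, it passed for 4 of the 10, with Etv5 at 0.97 and Sftpc at 0.48. Without the library labelled CCSP-p52 LPS pool 2, where 5.37% did, it passed for 1, Sftpc at -0.45.

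The 2 CCSP-p52 LPS pools differed in these genes. All 10 genes were higher in pool 2 than in pool 1 of that group, by 0.19 to 1.03 log2 units with a median of 0.61, where 49.3% of all genes were higher, and Etv5 and Sftpc had gaps of 1.03 and 0.93. In WT lungs with LPS, 5 of 10 were higher in pool 2 (median -0.0015, 43% of all genes), in CCSP-p52 lungs on dox 1 of 10 (median -0.19, 53.3% of all genes), and in WT lungs on dox 0 of 10 (median -0.30, 45.4% of all genes). The genes thus varied together from pool to pool also where no LPS was given. Deviations from the group means correlated above 0 in 45 of 45 pairs of these genes (median 0.82). With 2 pools a group the deviations of a group mirror each other, so each such correlation rests on the gaps of 4 groups. The gap of the CCSP-p52 LPS lungs had the largest median of these. Over the raw values of 8 arrays 31 of 45 correlations were above 0 (median 0.42), the lowest of them -0.64 for Sftpd and Lpcat1. The share of such pairs over all genes was not computed. In the LPS pools, the library labelled CCSP-p52 LPS pool 2 also had the lower leukocyte level and the higher type I cell level given above, and the part of either in the values of the 10 genes was not tested.

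Without the library labelled CCSP-p52 LPS pool 2, Sftpb, Sftpc, Abca3, Lpcat1 and Etv5, 5 of 10 genes where 42.4% of all genes passed, fell with LPS in the model of both genotypes. The same 5 genes fell in CCSP-p52 lungs, where 26.8% of all genes passed, Sftpc by 0.88 (adjusted p = 0.0027), Etv5 by 1.06 (adjusted p = 0.034) and Abca3 by 0.80 (adjusted p = 0.0072). That arm then held 1 pool, which is assumed to vary as the pools of the other groups do, and the gap between the 2 LPS pools no longer counts. Sftpd then had a change of 0.26 with adjusted p = 0.061. Without WT LPS pool 2, which carried the muscle and squamous transcripts, Lpcat1 fell by 0.72 (adjusted p = 0.019) and was the only 1 of the 10 to pass, where 30.2% of all genes did, and Abca3 and Etv5 had changes of -0.51 and -0.73 with adjusted p = 0.062 and 0.093. Scaling also bore on the calls near the threshold: after median centring Sftpb had a change of -0.36 with adjusted p = 0.054, and after quantile normalization Sftpd had a change of 0.22 with adjusted p = 0.115.

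Expression of p52 in the airway epithelium came with no called change in any of the 10 genes. None passed the threshold given above, and none had an unadjusted p under 0.05 in limma in any of the p52 comparisons. In the model of both treatments, CCSP-p52 minus WT lay between -0.10 for Lpcat1 (95% interval -0.43 to 0.23) and 0.12 for Sftpd (95% interval -0.08 to 0.32), and 0.271% of all genes passed. Without LPS it lay between -0.19 for Lpcat1 (95% interval -0.70 to 0.32) and 0.25 for Sftpd (95% interval -0.02 to 0.51), and 0.733% of all genes passed. With LPS it lay between -0.04 for Lamp3 (95% interval -0.70 to 0.61) and 0.32 for Etv5 (95% interval -0.52 to 1.16), and 2.06% of all genes passed. The intervals of all 10 genes without LPS, and of 8 of 10 with LPS, reached past a log2 difference of 0.41 in at least one direction, so that for these genes 2 pools a group do not tell a change of that size in that direction from none. In the model of both treatments, which assumes 1 p52 effect with and without LPS, the intervals of 6 of 10 genes did so.

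Values of single genes follow. Sftpd read 12.24 and 12.35 in CCSP-p52 lungs on dox and 12.09 and 12.00 in WT lungs on dox, a difference of 0.25 (SE 0.11, adjusted p = 1.00, limma). In Sftpa1 both CCSP-p52 pools on dox were also above both WT pools, and in Sftpc both were below them, with 13.95 and 13.87 against 13.98 and 13.96. The other 7 genes overlapped between the genotypes on dox, and 32.7% of all genes did not overlap. With LPS all 10 overlapped, and 31.3% of all genes did not. Without CCSP-p52 LPS pool 1, where the library labelled CCSP-p52 LPS pool 2 stands alone for its group, 3 of the 10 genes and 14.8% of all genes passed the p52 threshold in the LPS lungs: Sftpc at 0.43 (adjusted p = 0.097), Abca3 at 0.42 (adjusted p = 0.139) and Etv5 at 0.83 (adjusted p = 0.145, limma). Without that library 1 of the 10 and 3.89% of all genes passed, Sftpc at -0.51 (adjusted p = 0.50, limma), and Abca3 and Etv5 stood at -0.29 and -0.19, so that the sign of the p52 difference in LPS lungs turned with the pool kept.

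**Figure D3:**
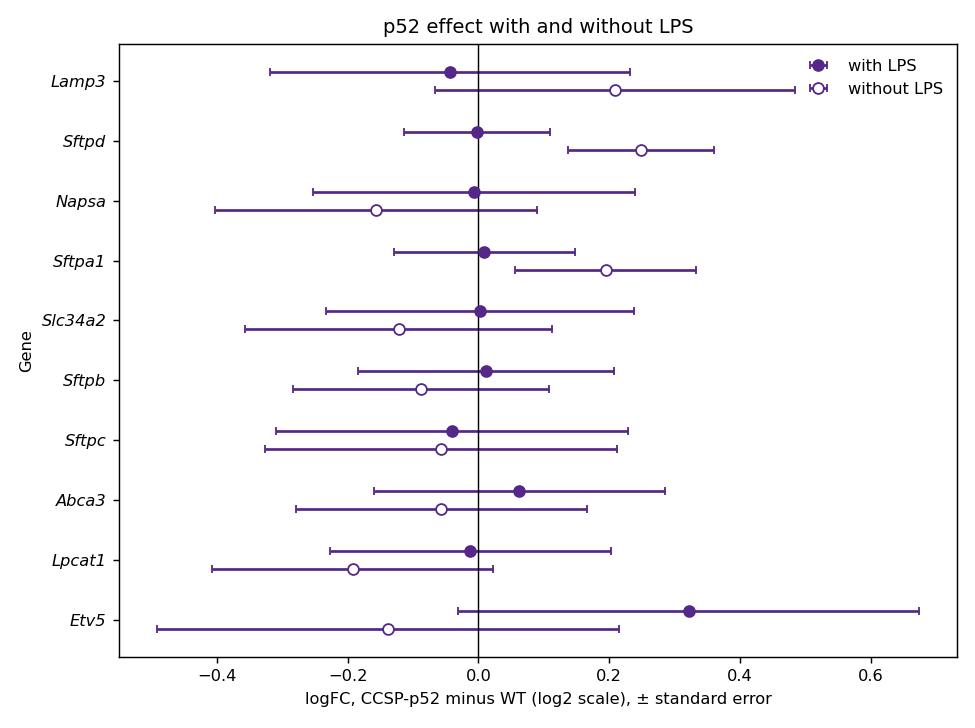
Log2 difference CCSP-p52 minus WT (horizontal axis) for each of the 10 genes, with filled points for lungs with LPS, open points for lungs without LPS and bars for ± 1 standard error of 2 pools against 2. The points lie between -0.19 and 0.32, and the bars of Etv5 are the widest.

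Beyond the 10 genes, lists of related genes were described by their counts and medians, with the background of 34.3% given above. Of 17 further type II cell markers, 3 rose and 8 fell after LPS (median -0.65). Those named are the 4 with the smallest p. Cldn18, the tight junction claudin of the alveolus, fell by 0.65 (SE 0.07), Bex2 fell by 0.54 (SE 0.09), Ppp1r14c fell by 0.87 (SE 0.15), and Chil1, a chitinase-like protein that macrophages and neutrophils also make, rose by 2.83 (SE 0.20). Among 13 transcription factors of type II cells, 2 rose and 6 fell (median -0.25). Nkx2-1 fell by 0.71 (SE 0.11) and Nfib, which the maturing lung needs, by 0.84 (SE 0.12), while Stat3, the signal transducer of IL-6 family cytokines, rose by 0.54 (SE 0.08) and Id2, an inhibitor of helix-loop-helix factors, by 0.91 (SE 0.15). All 8 of these genes passed with the library labelled CCSP-p52 LPS pool 2 or WT LPS pool 2 left out.

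Genes of surfactant lipid synthesis went both ways, with 5 of 20 higher and 7 lower (median -0.28). Insig1, the sterol-regulated brake on SREBP, fell by 0.85 (SE 0.16), and Srebf2, the SREBP of cholesterol synthesis, by 0.34 (SE 0.08). Cept1, which joins choline or ethanolamine to diacylglycerol in the last step of phospholipid synthesis, rose by 0.53 (SE 0.08), and Pgs1, the first enzyme on the way to phosphatidylglycerol, by 0.57 (SE 0.12). The number that fell lay between 2 and 13 with each array left out. Of 20 genes of the lamellar body, secretion and turnover, 8 rose and 3 fell (median 0.07), and the number that fell lay between 1 and 5 with each array left out. Csf2rb, the shared receptor chain for GM-CSF, with which macrophages clear surfactant, rose by 2.71 (SE 0.20), P2ry2, the ATP receptor that triggers secretion, by 0.91 (SE 0.12), and the vesicle traffic genes Lyst and Rab27a by 0.69 (SE 0.13) and 0.56 (SE 0.09). Leukocytes also use Csf2rb, Lyst and Rab27a.

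**Figure D4:**
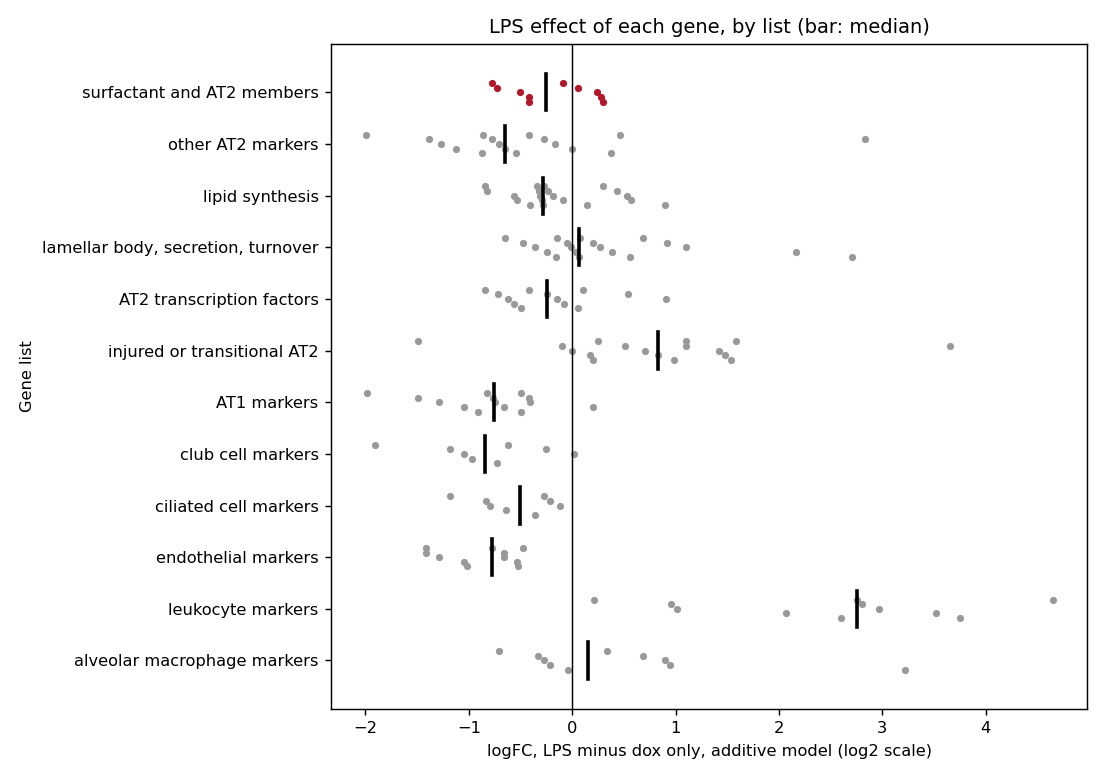
Log2 difference with LPS minus without LPS in the model of both genotypes (horizontal axis) for every measured gene of each list (vertical axis), with 1 point a gene, the 10 surfactant genes in red and a bar at each list's median. The surfactant genes spread from -0.78 to 0.30 around a median of -0.26, between the leukocyte list (median 2.76) and the type I cell list (median -0.76).

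Genes of injured and transitional type II cells were mostly higher. Of 17, 11 rose and 1 fell (median 0.83). Lcn2, an iron-withholding protein also stored by neutrophils, rose by 3.66 (SE 0.20), the cell cycle inhibitor Cdkn1a by 1.48 (SE 0.10) and the galectin Lgals3, which macrophages also make, by 1.42 (SE 0.17), whereas Sox4 fell by 1.49 (SE 0.10). In CCSP-p52 minus WT lungs without LPS, none of the 10 surfactant genes or of the 5 related lists passed after adjustment in limma, as no gene on the arrays did. Unadjusted p was under 0.05 for 4 of the 87 genes of these lists (1.73% of all genes), Insig1, Sox4, Cdkn1a and Lcn2. Past the p52 threshold Cdkn1a stood at 0.43 (SE 0.14) and Lcn2 at 0.58 (SE 0.22), both with adjusted p = 1.00 (limma). Cdkn1a and Lcn2 are also in the study's own list of p52-associated genes, which came from these same arrays.

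Markers of other cell types also changed with LPS. Of 11 leukocyte markers, 10 rose and 0 fell (median 2.76), with S100a8 up by 4.65 (SE 0.22), S100a9 by 3.52 (SE 0.14), Cxcr2 by 3.75 (SE 0.19) and Itgam by 2.97 (SE 0.22). Their mean was 11.54 and 10.77 in CCSP-p52 lungs with LPS and 11.61 and 11.26 in WT lungs with LPS, against 8.91 and 8.62 in CCSP-p52 lungs on dox and 9.12 and 8.61 in WT lungs on dox. Type I cell markers fell in 13 of 14 (median -0.76), endothelial markers in 10 of 11 (median -0.77), club cell markers in 6 of 8 (median -0.85) and ciliated cell markers in 3 of 8 (median -0.50), and none of these rose. The type I cell mean was 10.64 and 11.38 in CCSP-p52 lungs with LPS and 10.84 and 10.90 in WT lungs with LPS, against 11.77 and 11.72 in CCSP-p52 lungs on dox and 11.74 and 11.77 in WT lungs on dox. The part of these shifts in the values of the 10 genes was not tested.

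**Figure D5:**
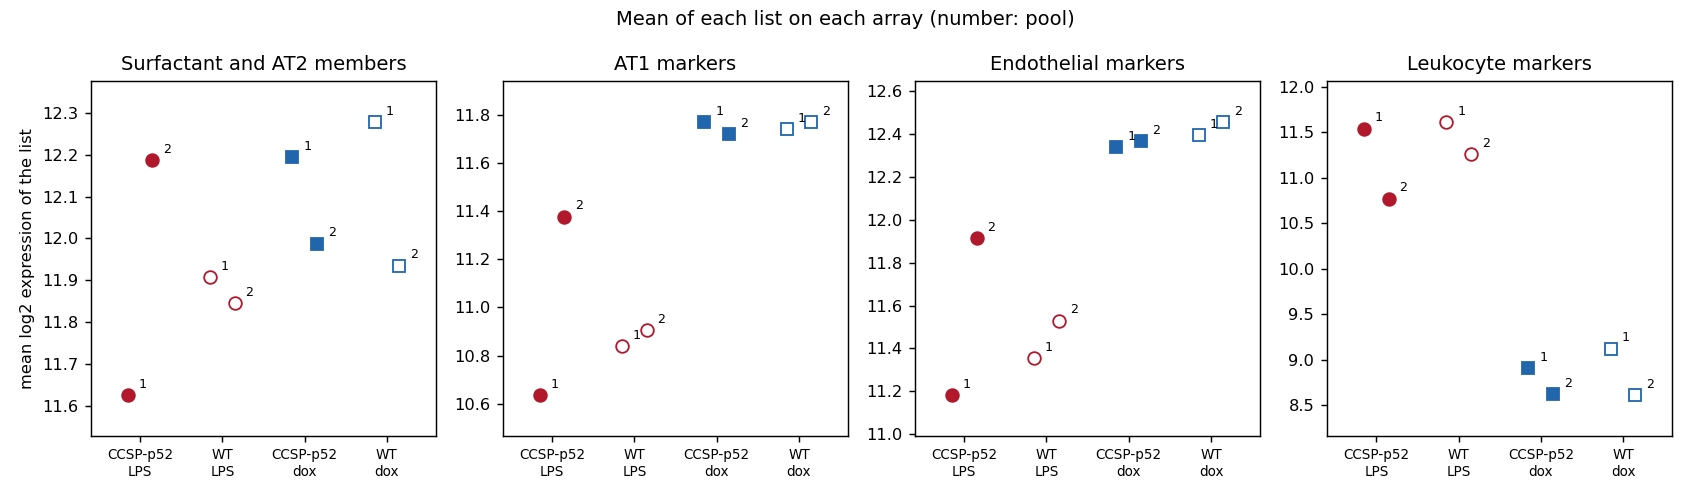
Mean log2 value over the 10 surfactant genes and over 3 marker lists (vertical axes) in the 2 pools of CCSP-p52 LPS, WT LPS, CCSP-p52 dox and WT dox lungs (horizontal axis), with 1 point a pool. Leukocyte markers lie higher in the 4 LPS pools than in the 4 pools without LPS, type I cell and endothelial markers lie lower, and the library labelled CCSP-p52 LPS pool 2 lies nearest to the lungs without LPS in all 3.

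By likeness of pattern, the genes closest to the mean of the 10 over 8 arrays were Tmem42 (correlation 0.99), Ltc4s (0.98), Zdhhc3 (0.97), Cstad (0.96), Tfcp2l1 (0.96) and Smtnl2 (0.96). Each value is Pearson's, with every surfactant gene centred on its own mean, and describes these 8 arrays, which share the LPS contrast and the pool differences described above.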

How the data were processed

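RNA of whole lungs, pooled from 3 mice each, was measured on 8 arrays. The deposited log2 values were made by the authors from Affymetrix arrays (Mouse Gene 1.0 ST) by RMA, the Robust Multichip Average, which corrects background, gives all arrays 1 distribution and summarises probes, so that differences in total RNA between lungs are removed. The submitters' notes also name limma 3.20.8. The genome build was not given in the sources used here, and whether the platform's probe table is of the same array version was not settled. Of 35556 probe sets, 21218 (59.7%) had 1 gene symbol, 1881 had several and 12457 had none in that table. They gave 18820 genes, each read from its probe set with the highest mean over the 8 arrays. Number of arrays, not depth, limits precision.

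Tests used limma 3.58.1 in R 4.3.3 on the 8 arrays: genotype and LPS as terms for the common effects, and 4 group means for effects within a genotype or treatment and for their difference. LPS calls had an adjusted p (Benjamini-Hochberg, over all genes) under 0.05, and p52 calls a log2 difference of at least 0.41 in either direction, the study's fold cut-off for p52-induced genes, with an unadjusted p under 0.05, which was added here. The LPS term of the model of both genotypes was tested on simulated arrays with known LPS changes. Their noise was independent from gene to gene, so the pool differences that these genes share were not simulated. Named were the 10 genes, from each related list up to 4 genes with the smallest p for LPS and up to 3 for p52 without LPS, of which those that the text needs are printed, and the 6 genes closest in pattern to the mean of the 10. The 10 genes and the lists were chosen with earlier results of these data known.

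Pools with the same number deviated together in all 6 pairs of groups (correlation of deviations from group means 0.14 to 0.35). The labels do not say what a number stands for, and the pairing rests on these values. A fit with the number as a block, other sets and summaries of probe sets, other scalings, moderation, array weights, thresholds and models, and leaving out arrays were tried.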

Additional observations from a re-analysis of the deposited data

How the results depend on the processing

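With 2 pools a group and whole-lung RNA, changes near the threshold were limited by the spread between pools. With each array left out, the number of the 10 genes changed by LPS lay between 1 and 5 (23.9% to 42.4% of all genes), in CCSP-p52 lungs between 0 and 5 (0.239% to 26.8%), in WT lungs between 0 and 6 (1.45% to 32.8%), by p52 with LPS between 0 and 3 (1.79% to 14.8%) and by the difference between genotypes between 0 and 4 (1.89% to 15.9%), and by p52 in both treatments and without LPS it was 0 throughout. For LPS it was 1 without either WT dox pool, either WT LPS pool or CCSP-p52 dox pool 1, and 2 when CCSP-p52 LPS pool 1 was dropped. In CCSP-p52 lungs it was 5 when pool 2 of their LPS group was dropped. With all probe sets tested, 2 genes changed with LPS (29.6% of all genes) and 0 in WT lungs (15.8%), with the stricter threshold 1 (19.1%) and 0, and 3 with the average of the genotypes' LPS effects (32.5%). In WT lungs 5 changed with array weights (33.5%), 1 after quantile normalization (20.5%), 6 with the 2 groups alone (27.5%) and 6 without the second pools of both LPS groups (34%). Without those pools 5 changed in CCSP-p52 lungs (32.6%) and 1 with p52 under LPS (4.11%). The cause was not tested.

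The replicate block, with the pool number as a factor, gave 4 genes changed by LPS (37.9% of all genes) and changed no other call of the 10 genes.

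None of the values whose sign turned was a call with all arrays, and Sftpc with p52 under LPS passed the threshold in both directions when 1 or the other CCSP-p52 LPS pool was left out. Array weights turned p52 for Abca3 (-0.012) and Etv5 (-0.0041). Median centring turned the difference between genotypes for Sftpc (-0.035), LPS in CCSP-p52 lungs for Slc34a2 (0.0022), p52 for Abca3 (-0.00066) and p52 with LPS for Sftpa1 (-0.020), Sftpb (-0.018) and Slc34a2 (-0.027). Quantile normalization turned the difference for Sftpc (-0.035) and p52 with LPS for Sftpd (0.018). Leaving out the second pools of both LPS groups turned LPS for Sftpa1 (-0.034), p52 for Abca3 (-0.12) and Etv5 (-0.16), p52 with LPS for Sftpa1 (-0.15), Sftpb (-0.32), Abca3 (-0.25), Etv5 (-0.19) and Slc34a2 (-0.41), and the difference for Sftpb (-0.24), Sftpc (-0.37), Abca3 (-0.20), Lpcat1 (-0.10), Napsa (-0.16), Etv5 (-0.052) and Slc34a2 (-0.29).

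With single arrays left out, these ranges crossed 0. For LPS they were -0.0067 to 0.14 in Sftpa1 and -0.24 to 0.028 in Slc34a2. For LPS in CCSP-p52 lungs they were -0.21 to 0.14 in Sftpa1, -0.88 to 0.053 in Sftpc, -0.042 to 0.38 in Lamp3 and -0.36 to 0.30 in Slc34a2. For LPS in WT lungs they were -0.11 to 0.45 in Napsa and -0.34 to 0.033 in Slc34a2. For p52 they were -0.17 to 0.077 in Sftpb, -0.24 to 0.14 in Sftpc, -0.15 to 0.13 in Abca3, -0.18 to 0.045 in Napsa, -0.097 to 0.21 in Lamp3, -0.16 to 0.27 in Etv5 and -0.20 to 0.060 in Slc34a2. For p52 with LPS they were -0.16 to 0.18 in Sftpa1, -0.30 to 0.33 in Sftpb, -0.51 to 0.43 in Sftpc, -0.13 to 0.12 in Sftpd, -0.29 to 0.42 in Abca3, -0.31 to 0.28 in Lpcat1, -0.18 to 0.17 in Napsa, -0.23 to 0.14 in Lamp3, -0.19 to 0.83 in Etv5 and -0.33 to 0.33 in Slc34a2. For p52 without LPS they were -0.15 to 0.039 in Abca3, -0.39 to 0.0018 in Lpcat1, -0.44 to 0.12 in Napsa, -0.18 to 0.59 in Lamp3, -0.47 to 0.20 in Etv5 and -0.31 to 0.065 in Slc34a2. For the difference between genotypes they were -0.21 to 0.41 in Sftpb, -0.45 to 0.48 in Sftpc, -0.24 to 0.48 in Abca3, -0.12 to 0.48 in Lpcat1, -0.13 to 0.43 in Napsa, -0.64 to 0.13 in Lamp3, -0.054 to 0.97 in Etv5 and -0.21 to 0.45 in Slc34a2. Lpcat1 fell with LPS in every setting run.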

Other observations

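Alveolar macrophages take up and break down spent surfactant, and the markers of these cells did not move one way after LPS. Of 10 such markers, 4 rose and 2 fell (adjusted p under 0.05, limma, median 0.15), where 13.5% of all genes rose and 20.8% fell. Chil3, a chitinase-like protein, rose by 3.22 on the log2 scale (SE 0.45), Marco, a scavenger receptor, by 0.94 (SE 0.16), the integrin Itgax by 0.90 (SE 0.21) and Plet1 by 0.69 (SE 0.10). The 2 that fell were the fatty acid binding protein Fabp1, by 0.71 (SE 0.21), and the tetraspanin Cd9, by 0.33 (SE 0.10). Fabp1 was named by its p for p52 without LPS, and Cd9 was named after its values were seen. The others did not pass: Krt79 at 0.33 (SE 0.20), Mrc1 at -0.27 (SE 0.31), Pparg at -0.21 (SE 0.08) and Siglecf at -0.04 (SE 0.08). Which cells made these transcripts was not measured. The mean of the 10 markers was 8.71 and 8.82 in CCSP-p52 lungs with LPS and 8.79 and 8.65 in WT lungs with LPS, against 8.51 and 8.17 in CCSP-p52 lungs on dox and 8.45 and 8.04 in WT lungs on dox.

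Markers of type I cells, which type II cells renew, were also lower in whole-lung RNA. Fewer cells and less of a transcript in each cell cannot be told apart there. Igfbp2, which binds insulin-like growth factors, fell by 1.98 (SE 0.26), Sema3e by 1.29 (SE 0.19), Emp2 by 0.66 (SE 0.10) and the water channel Aqp5 by 0.50 (SE 0.08). Among club cell markers, Scgb3a2, a secretoglobin, fell by 1.91 (SE 0.43), Aldh1a1 by 1.18 (SE 0.24) and Cckar by 0.96 (SE 0.18).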
